A study of Arabidopsis thaliana with 6 samples.

Results

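The RBOH genes encode the NADPH oxidases of the plant plasma membrane, and they were followed here in the root tips of Arabidopsis (Arabidopsis thaliana) after exposure to aluminum (Al). The family was taken as 10 named loci, RBOHA to RBOHJ, chosen by locus and not by any measured value. The expression table held a row for 9 of them among its 24379 genes, and the expression of RBOHJ (AT3G45810), which has no row in the table used here, was not analysed. The study profiled mRNA by RNA-seq in wild type (WT) Col-0 seedlings, 7 days old, comparing 3 Al-treated samples with 3 control samples. Its text names growth on Murashige and Skoog medium or in hydroponic solution, without saying which served these samples. Both groups carried no mutation or transgene, and they differed by the Al treatment alone as far as the labels state. The labels name the tissue as roots. The study's text gives the treatment as 25 µM AlCl3 for 3 h and the tissue as the terminal 0.5 cm of the root. The labels do not say whether the 3 samples of a group came from separate cultures, so every p-value below measures the spread between these samples, which may be technical.

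An RBOH protein carries electrons from cytosolic NADPH through the plasma membrane to oxygen in the cell wall space, the apoplast, where the superoxide that forms is turned into H2O2. The N-terminal part of the protein binds Ca2+ through EF hands and is phosphorylated by kinases, so that the oxidase is switched on after translation as well as set by the amount of its mRNA. In roots the family is known for the growth of root hairs, for the lignin of the Casparian strip in the endodermis, and for stress signalling. In pollen tubes RBOHH and RBOHJ act together at the growing tip.

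After Al, RBOHD rose 3.28-fold and became the most abundant RBOH transcript of the root tip. RBOHA and RBOHE rose to 1.3 and 1.34 times their control levels. RBOHC and RBOHB fell, to 0.705 and 0.665 times their control levels. RBOHF, RBOHG and RBOHI were not called, and RBOHH was listed at or near 0 throughout. A change was called where limma, which fits a linear model to every gene and pools the variance over genes, gave an adjusted p below 0.05 after Benjamini-Hochberg adjustment over the 18463 genes tested. At this limit 3 of the 8 RBOH genes tested were higher and 2 were lower. Over all genes tested the shares were 21.3% higher and 38.5% lower, so that calls were common in these samples and a count of RBOH calls is read against those shares. The median log2 fold change was 0.19 over the 8 genes and -0.13 over all genes tested.

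The values were FPKM, counts of fragments corrected for the length of the transcript and the size of the library, so that levels can be compared between genes. They were also rescaled in 3 other ways: to a common sum in each sample (TPM), by the median ratio over genes, which centres the change of all genes on 0, and by quantile normalization, which gives every sample the same distribution. The depth, estimated from the steps between low FPKM values, was between 21850000 and 22100000 fragments per sample. At this depth the RBOH genes tested had between 228.2 fragments (RBOHB in Al sample 3) and 2648.3 fragments (RBOHD in Al sample 2), for which counting alone gives an error of 6.62% and 1.94%. The tissue label was checked against marker genes. The summed FPKM of 4 leaf photosynthesis genes was 5.59 to 9.3 in control and 6.24 to 13.09 after Al. In that list RBCS1A had a mean of 5.53 in control and 6.15 after Al, LHCB1.3 had 0.973 and 1.09, RBCS3B had 0.76 and 1.63, and LHCB2.1 had 0.11 and 0.0633. Of 4 root meristem genes, PLT1, a regulator of the root stem cell niche, went from 8.753 ± 1.5 (SD, n = 3) to 4.397 ± 0.798 FPKM. PLT1 and PLT2 were called lower, SHR was not called and WOX5 was too low to be tested. No sample stood apart in depth.

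**Figure D1:**
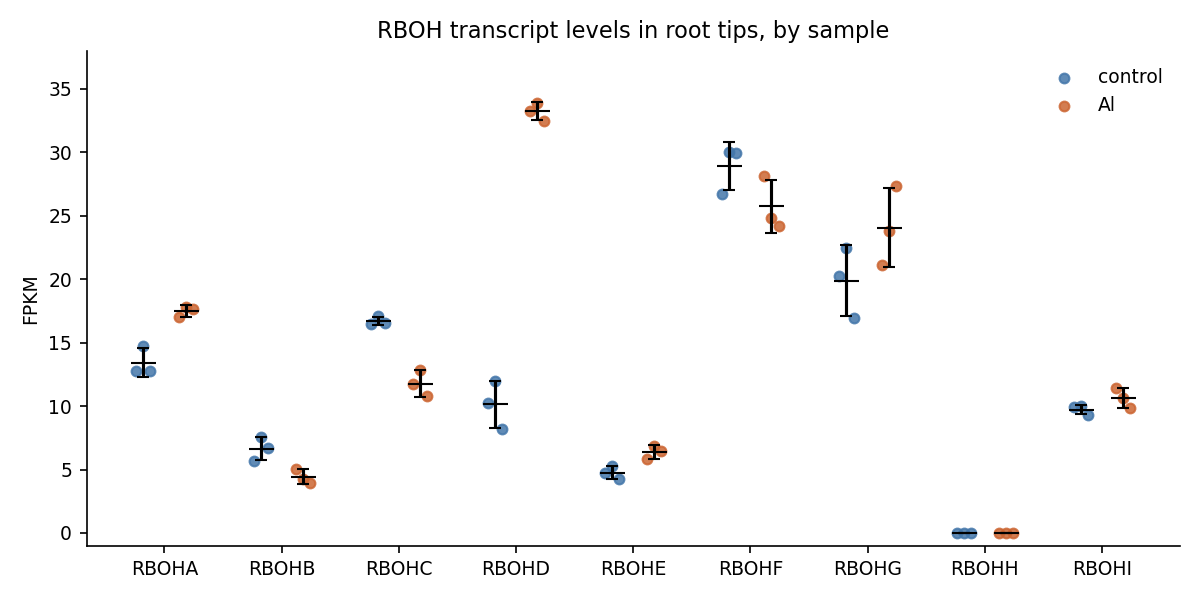
FPKM of the 9 RBOH genes with a row in the table, in each of the 3 control samples (blue) and the 3 Al samples (orange). Points are samples, horizontal lines are group means and error bars are 1 SD. The 3 Al values of RBOHD, 32.48 to 33.9, lie far above its control values of 8.22 to 11.96, while RBOHH lies at 0 in both groups.

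RBOHD (AT5G47910) is the oxidase of the immune oxidative burst and of the signal by reactive oxygen species (ROS) that spreads between cells after a local stress. It had an FPKM of 10.23, 11.96 and 8.22 in the control samples and of 33.29, 33.9 and 32.48 in the Al samples. The lowest Al value was well above the highest control value, and the 3 Al samples lay closer together than the 3 controls. The mean rose from 10.14 ± 1.87 to 33.2 ± 0.712 (SD, n = 3), with a log2 fold change of 1.63 ± 0.11 (SE) on the log2(FPKM + 1) scale and an adjusted p of 3.59e-06 by limma. It ranked 586 by fold among the 3933 genes called higher. In control, 56.4% of all genes in the table had a lower mean than RBOHD, and after Al 82.6% did. Its call was kept in all 16 alternative settings, with adjusted p-values from 1.8e-06 to 4.93e-05 by limma and log2 fold changes of 1.504 to 1.75 when single samples were left out.

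RBOHA (AT5G07390) and RBOHE (AT1G19230) rose by less. RBOHA is close to RBOHC and RBOHD in protein sequence. Its FPKM was 12.73, 14.76 and 12.78 in control and 16.98, 17.82 and 17.67 after Al, with no overlap between the groups. The change was 0.36 ± 0.08 (SE) on the log2 scale, with an adjusted p of 0.00363 by limma. RBOHE is best known from anthers, where it takes part in the timing of tapetum breakdown. Its FPKM was 4.69, 5.3 and 4.27 in control and 5.82, 6.89 and 6.45 after Al. The groups did not overlap, and the change was 0.36 ± 0.10 (SE) on the log2 scale with an adjusted p of 0.0135 by limma. Without Al sample 2 the change of RBOHE was 0.31 and its adjusted p by limma 0.0526, so the call was lost. Without control sample 3 the change was 0.30 and the adjusted p by limma 0.0444. The call of RBOHE thus lay near the limit, whereas RBOHA kept its call whichever sample was left out.

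Promoters of 3 of the called genes are shown, since these are members that moved. The 250 bases before the annotated start of each gene were read from TAIR10.1, as annotated by RefSeq, and searched on both strands for the W-box core TTGAC, bound by WRKY factors. Capitals mark a match, written GTCAA where it lies on the opposite strand. RBOHD (chr5:19396791-19397040, plus strand) and RBOHE (chr1:6643692-6643941, plus strand) rose, and RBOHC (chr5:20762462-20762711, minus strand) fell. Each sequence is given 5′ to 3′ on the strand of the gene and ends at the base before the start.
RBOHD: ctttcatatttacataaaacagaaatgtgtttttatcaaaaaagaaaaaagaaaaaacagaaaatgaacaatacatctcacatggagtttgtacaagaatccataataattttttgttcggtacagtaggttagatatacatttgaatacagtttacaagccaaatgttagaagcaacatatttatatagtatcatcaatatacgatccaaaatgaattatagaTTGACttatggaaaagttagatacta
RBOHE: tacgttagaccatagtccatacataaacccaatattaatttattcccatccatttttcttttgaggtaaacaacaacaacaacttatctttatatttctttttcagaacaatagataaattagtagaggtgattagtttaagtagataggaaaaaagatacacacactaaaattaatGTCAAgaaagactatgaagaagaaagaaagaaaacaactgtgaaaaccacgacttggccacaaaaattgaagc
RBOHC: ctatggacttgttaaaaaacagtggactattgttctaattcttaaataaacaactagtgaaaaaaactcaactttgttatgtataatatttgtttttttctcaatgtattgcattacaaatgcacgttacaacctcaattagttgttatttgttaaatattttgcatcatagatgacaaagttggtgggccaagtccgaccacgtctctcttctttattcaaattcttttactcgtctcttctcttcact

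The match began 26 bases before the start in RBOHD and 73 bases before it in RBOHE. No TTGAC lay in the RBOHC window. The direction of change did not follow the motif through the family: RBOHB, which fell, held 3 matches, beginning 225, 133 and 54 bases before its start. That start is annotated only 4 bases before the coding sequence, so its window may include transcribed bases. RBOHG held 1 match and RBOHH 2 matches. In all, 5 of the 9 RBOH promoters searched (RBOHB to RBOHJ, with RBOHC, RBOHF, RBOHI and RBOHJ holding none) held the core, against 44.9% of the 27443 promoters of this length, a share that makes the motif common anywhere. The CAMTA core CGTGT was found among these 9 in RBOHF only, against 22.1% of all promoters. The letters CGCGT, the G-box CACGTG and the GCC-box GCCGCC were in none of the 9 windows and in 6.9%, 6.5% and 1.9% of all promoters. No motif overlapped another in the RBOH windows, and these matches describe letters, not bound sites.

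RBOHC (AT5G51060), known as ROOT HAIR DEFECTIVE 2, makes the ROS gradient at the tip of growing root hairs. It had an FPKM of 16.49, 17.06 and 16.55 in control and of 11.73, 12.83 and 10.76 after Al. The groups were well separated, and the control samples were nearly equal. The mean fell from 16.7 ± 0.313 to 11.8 ± 1.04 (SD, n = 3), with a log2 fold change of -0.47 ± 0.08 (SE) and an adjusted p of 0.000874 by limma. The change lay between -0.53 and -0.42 when single samples were left out. Of 12 root hair genes listed as markers, 11 were tested and all 11 were called lower, beside 38.5% of all genes tested, with a median log2 fold change of -0.92. The summed FPKM of all 12 was 108.7 to 144.4 in control and 46.88 to 55.19 after Al. None was at 0 in all 6 samples, but RSL1, which was too low to be tested, was at 0 in Al sample 3. In this list PRP3, a proline-rich cell wall protein of root hairs, had FPKM of 45.74, 42.54 and 30.07 in control and 9.58, 10.9 and 9.79 after Al. COW1, a phosphatidylinositol transfer protein needed for hair elongation, went from a mean of 8.43 ± 1.16 to 2.06 ± 0.456 (SD, n = 3). EXPA7, a root hair expansin, went from 17.7 ± 1.43 to 5.06 ± 0.433, and MRH6 from 4.93 ± 1.68 to 1.09 ± 0.48. RBOHC fell by less than these 4 genes, which had the largest falls of the list. Its change lay within the range of the hair markers. RHD6 fell by less (-0.40 on the log2 scale), ROPGEF3 by about as much (-0.48), and the other markers tested by more. In whole root tips, fewer hair cells and less RNA per cell cannot be told apart, and the part of the hair markers in the fall of RBOHC was not tested.

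RBOHB (AT1G09090) is known for its part in seed after-ripening, and it was among the weakest RBOH transcripts of the root tip. Its FPKM was 5.7, 7.55 and 6.7 in control and 5.07, 4.27 and 3.93 after Al. The groups did not overlap, although the nearest samples of the groups were only 5.7 and 5.07. The mean fell from 6.65 ± 0.926 to 4.42 ± 0.585 (SD, n = 3), by -0.50 ± 0.12 (SE) on the log2 scale with an adjusted p of 0.00637 by limma. The call was kept whichever sample was left out, with log2 fold changes of -0.59 to -0.41.

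RBOHF (AT1G64060), which acts beside RBOHD in stress signalling, in closing stomata and in the lignin of the Casparian strip, was the leading RBOH transcript of the control root tip. It had an FPKM of 26.71, 30.02 and 29.98 in control and of 28.14, 24.84 and 24.2 after Al. Al sample 1 fell inside the control range, and the change of -0.16 ± 0.08 (SE) on the log2 scale was not called (adjusted p = 0.109 by limma). RBOHF was called lower without Al sample 1 (log2 fold change -0.23, adjusted p = 0.0451 by limma) and on a TPM scale (-0.23, adjusted p = 0.0392 by limma). Markers of the endodermis, where RBOHF serves the Casparian strip, were also examined. Of 11 such genes, all tested, 8 were called lower, 3 were not called and none was higher, beside 38.5% lower over all genes tested, with a median log2 fold change of -0.39 and a summed FPKM of 291.1 to 366.4 in control and 224.4 to 261.8 after Al. With median-ratio scaling the number called lower was 4, against 8 with quantile normalization and 9 on the TPM scale. Over the 18463 genes tested, the numbers called lower at these scalings were 4984, 6817 and 8169. CASP5, a membrane scaffold protein of the Casparian strip domain, went from 4.93 ± 0.663 to 0.73 ± 0.156 (SD, n = 3), and CASP4 from 10.7 ± 2.32 to 3.70 ± 0.537. PER64, a peroxidase of the strip, went from 42.6 ± 5.22 to 24.2 ± 1.3, and CASP2 from 32.9 ± 5.64 to 19.0 ± 1.49. Their part in the RBOHF values was not tested.

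RBOHG (AT4G25090) and RBOHI (AT4G11230) have less settled roles. RBOHG had an FPKM of 20.25, 22.46 and 16.96 in control and of 21.1, 23.76 and 27.32 after Al, so that the lowest Al sample lay within the control range. Its change of 0.26 ± 0.12 (SE) on the log2 scale was not called (adjusted p = 0.0803 by limma). It was called higher without control sample 2 (0.35, adjusted p = 0.0418 by limma), without Al sample 1 (0.35, adjusted p = 0.0377 by limma) and with median-ratio scaling (0.40, adjusted p = 0.0284 by limma). RBOHI was flatter, with an FPKM of 9.9, 9.99 and 9.29 in control and of 11.44, 10.64 and 9.87 after Al. The lowest Al sample lay within the control range again, and the change of 0.12 ± 0.08 (SE) was not called (adjusted p = 0.244 by limma). It was called with median-ratio scaling (0.25, adjusted p = 0.0203 by limma) and with quantile normalization (0.20, adjusted p = 0.0431 by limma). With 3 samples in a group, neither gene was shown to be unchanged.

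RBOHH (AT5G60010) was listed at 0 in 5 samples and at 0.01 in Al sample 2. For its length, 3 fragments are an FPKM of about 0.044, so the single value above 0 lay under what a count of 0 allows. It could not be tested. Pollen markers were low too: VGD1 and ANX2 were at 0 but for an FPKM of 0.02 in control sample 2 and in Al sample 1, respectively, TIP1;3 lay between 0.09 and 0.39, and ANX1 had 0.90, 0.99 and 1.23 in control and 0.52, 0.51 and 0.68 after Al. Here ANX1, a receptor-like kinase of the pollen tube, was the only pollen marker above an FPKM of 0.5 in any sample. The fifth marker, TIP5;1, had no row in the table used here.

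**Figure D2:**
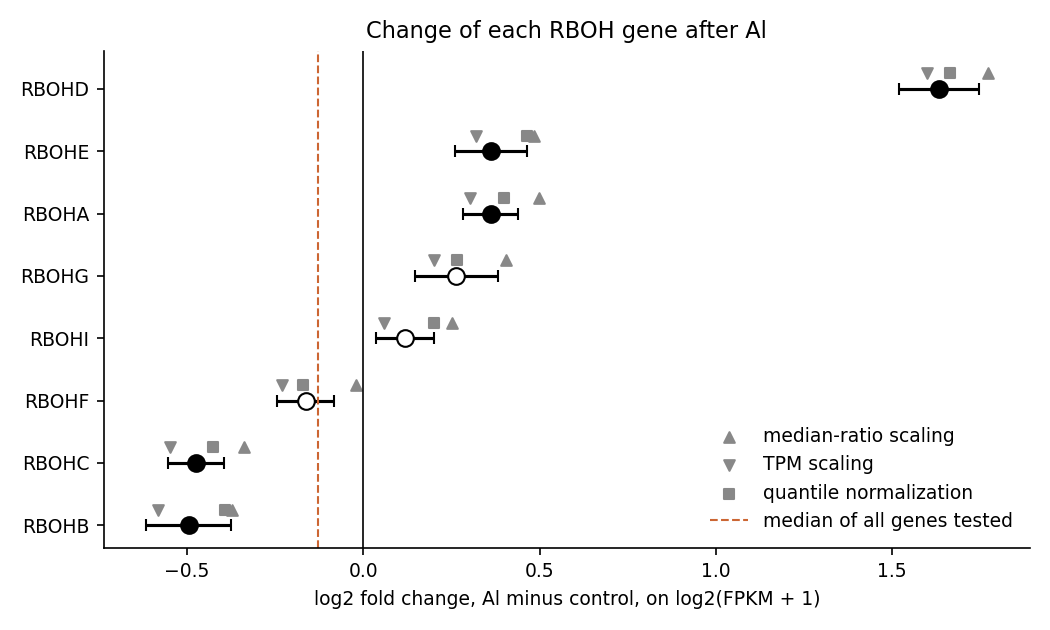
Log2 fold change of the 8 RBOH genes tested (Al minus control, on the log2(FPKM + 1) scale), with error bars of 1 SE. Filled circles have a limma adjusted p below 0.05 and open circles do not, grey symbols give the change under 3 other scalings, and the dashed line is the median of all genes tested, -0.13. RBOHD stands far to the right at 1.63, and the direction of each called gene was the same under the 3 other scalings.

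The scaling of the samples mattered most for the genes near 0. The median log2 fold change over all genes was -0.13 with the FPKM as deposited, -0.20 on the TPM scale and -0.10 with quantile normalization, and median-ratio scaling sets it at 0 by construction. Against the shift of -0.13, RBOHF, at -0.16, moved like the middle of the table, and RBOHG and RBOHI lay above it. The 3 genes called higher and the 2 called lower kept their direction and their call under each of these scalings. Between the groups, the FPKM of 5 of the 8 RBOH genes tested did not overlap, against 66.3% of all genes tested. Each of the 5 had p = 0.1 by exact permutation (two-sided), which is the limit for 3 samples against 3.

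The order of the transcripts within the family changed with Al. In control, RBOHF led with a mean FPKM of 28.9, apart from all others. RBOHG (19.9) and RBOHC (16.7) followed with overlapping samples, then RBOHA (13.4), RBOHD (10.14) and RBOHI (9.73), of which the last pair overlapped, then RBOHB (6.65) and RBOHE (4.75). After Al, RBOHD led with 33.2, apart from RBOHF (25.7) and RBOHG (24.1), which overlapped with each other. RBOHA (17.5) came next, then RBOHC (11.8) and RBOHI (10.6) with overlapping samples, then RBOHE (6.39) and RBOHB (4.42). RBOHD thus moved from the fifth place to the first, and RBOHB and RBOHE exchanged theirs.

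On the FPKM as deposited, the pool of RBOH transcripts grew by the rise of RBOHD. The summed FPKM of the 9 genes was 106.7, 119.1 and 104.8 in control and 133.6, 135.0 and 132.7 after Al, a rise of 23.6 or 1.21-fold, with no overlap (exact two-sided permutation p = 0.1, the smallest possible). Without RBOHD the sums were 96.47, 107.1 and 96.53 in control and 100.3, 101.1 and 100.2 after Al. These overlapped and differed by 0.467 in the mean (exact two-sided permutation p = 1.0), since differences above and below the control level nearly cancelled over the other genes. The near cancelling was read on the FPKM as deposited only. The sum of the 9 genes rose 1.16-fold on the TPM scale, 1.24-fold with quantile normalization and 1.34-fold with median-ratio scaling. The share of RBOHD in the pool was 9.59%, 10.04% and 7.85% in control and 24.92%, 25.12% and 24.48% after Al. The mean share of RBOHC went from 15.2% ± 0.772 to 8.80% ± 0.699 (SD, n = 3), and that of RBOHF from 26.3% ± 2.02 to 19.2% ± 1.59. The mean share of RBOHG, 18.01% ± 1.58 in control, differed between the groups by less than its spread. Shares of a pool are not independent of each other, and a rise of RBOHD lowers the other shares by itself.

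Ratios between members within a sample are not altered by a linear scaling of that sample. RBOHD over RBOHF, the pair that often acts together, was 0.383, 0.398 and 0.274 in control and 1.18, 1.36 and 1.34 after Al. RBOHD over RBOHC was 0.620, 0.701 and 0.497 in control and 2.84, 2.64 and 3.02 after Al, 4.67-fold higher in the mean. RBOHG over RBOHC, the closest pair by protein sequence among the genes tested, rose from 1.23, 1.32 and 1.02 to 1.80, 1.85 and 2.54. Each of these ratios separated the groups without overlap (exact two-sided permutation p = 0.1, the smallest possible).

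**Figure D3:**
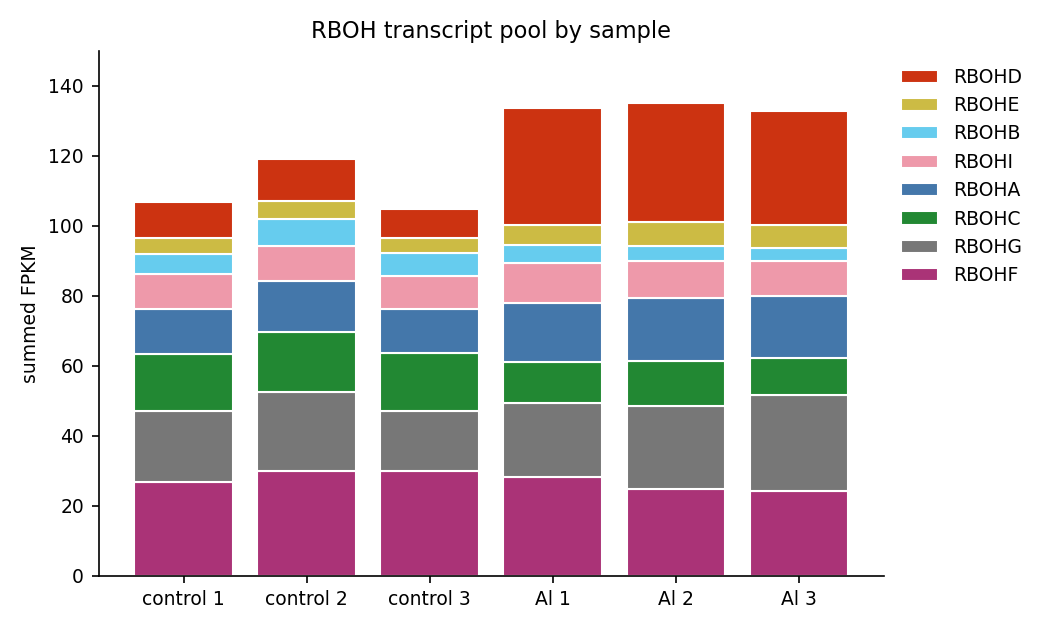
Summed FPKM of the RBOH genes in each sample, stacked by gene; RBOHH is too low to be seen. The bars reach 104.8 to 119.1 in control and 132.7 to 135.0 after Al. On the FPKM as deposited, shown here, the red RBOHD block on top holds nearly all of the difference in the means.

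The members were compared by gene model and protein sequence. In TAIR10.1 the 9 genes with a row lie on 3 chromosomes: RBOHA (chr5:2335895-2339913), RBOHC (chr5:20757199-20762461), RBOHD (chr5:19397041-19402061) and RBOHH (chr5:24160270-24165052) on chromosome 5, RBOHB (chr1:2932739-2936586), RBOHE (chr1:6643942-6649375) and RBOHF (chr1:23769774-23776984) on chromosome 1, and RBOHG (chr4:12878667-12883805) and RBOHI (chr4:6840473-6845627) on chromosome 4. RBOHJ lies on chromosome 3. The proteins ranged from 843 residues (RBOHB) to 952 residues (RBOHE), and RBOHD, with 921 residues, came from the gene with the fewest exons, 8 against 11 to 14 in the others. Translated from TAIR10.1, RBOHC shared 73.3% of aligned residues with RBOHG, 65.6% with RBOHA and 64.6% with RBOHD, and RBOHF shared 62.2% with RBOHI. RBOHH and RBOHJ were the closest pair, at 83.5%. Closeness in sequence did not always go with a like change after Al: RBOHC fell while RBOHA and RBOHD rose. RBOHA and RBOHD, which share 62.5% of aligned residues, both rose, and RBOHF and RBOHI were both not called. No stretch of 50 bases was shared between transcripts of different members, so that their reads could be told apart at that length.

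Some RBOH genes overlap a neighbour on the opposite strand at the end of the gene. The strand setting of the counting is not given in the sources used here, so the values of these members carry that uncertainty. RBOHA overlaps AT5G07380 by 169 bases, whose FPKM was 0.537 ± 0.185 (SD, n = 3) in control and 0.823 ± 0.367 after Al, far below that of RBOHA. RBOHE overlaps AT1G19240 by 133 bases, and that gene went from 18.3 ± 0.906 to 20.7 ± 0.557. It was not called (adjusted p = 0.0577 by limma), although its groups did not overlap. RBOHB overlaps AT1G09100 by 59 bases and RBOHG overlaps AT4G25080 by 37 bases. Both neighbours were called lower, the first from 25.4 ± 0.431 to 18.5 ± 1.36 and the second from 34.8 ± 1.14 to 19.4 ± 0.633. RBOHB and RBOHE moved in the direction of their neighbours, and RBOHG did not. The samples of the neighbour of RBOHA overlapped between the groups. The part of these neighbours in the RBOH values was not tested. RBOHC, RBOHD and RBOHF overlap no other gene.

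A list of 27 regulators held genes for proteins that act on RBOH oxidases, together with UPB1, a transcription factor that controls root peroxidases. All 27 were tested, and 16 were called higher and 9 lower, beside 21.3% higher and 38.5% lower over all genes tested. The median log2 fold change was 0.35 in the list and -0.13 over all genes tested. The number called higher was 14 on the TPM scale and 18 with median-ratio scaling, with 9 and 6 lower. Over the 18463 genes tested, 3431 and 5381 were called higher at these scalings, with 8169 and 4984 lower. The summed FPKM of the 27 regulators was 1139 to 1156 in control and 1370 to 1453 after Al. CPK4, a calcium-dependent protein kinase of the group that phosphorylates RBOHD, had an FPKM of 13.01, 14.16 and 13.22 in control and of 74.07, 66.17 and 52.68 after Al. This was the largest change of the list, 2.16 ± 0.11 (SE) on the log2 scale with an adjusted p of 5.22e-07 by limma. CBL1, a calcium sensor that with CIPK26 activates RBOHF, had 8.89, 8.23 and 9.91 in control and 21.52, 23.12 and 17.43 after Al (1.11 ± 0.11, SE). PBL13, a kinase that acts on RBOHD as a brake, had 21.6, 21.29 and 18.77 in control and 50.84, 47.06 and 34.32 after Al (1.05 ± 0.13, SE). CPK1, a calcium-dependent kinase of the immune response, went from 30.6 ± 0.821 to 56.3 ± 5.81 (SD, n = 3). The list thus held both activators and a brake among its leading changes.

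Further genes of this list were singled out after their values were seen. Among kinases that phosphorylate RBOHD, CPK5 went from 83.0 ± 1.32 to 124.4 ± 6.46 and BIK1 from 30.9 ± 0.687 to 44.6 ± 0.955 (SD, n = 3), and both were called higher, while SIK1 went from 28.8 ± 1.98 to 19.6 ± 0.776 and was called lower. Among those that act on RBOHF, OST1, the kinase of abscisic acid signalling, went from 7.67 ± 0.893 to 5.49 ± 0.261 and CIPK26 from 24.6 ± 1.76 to 19.2 ± 0.15, and both were called lower. CBL1, named above as acting with CIPK26, was called higher. Of other genes in the list, CIPK11 (0.35 on the log2 scale) and CPK6 (0.82) were called higher, and CBL9 (-0.43) and LECRK-I.9 (-0.46) lower. ROPGEF4, an exchange factor that activates ROP GTPases in root hairs upstream of RBOHC, went from 4.15 ± 0.33 to 1.94 ± 0.491 and was the gene of the list with the largest fall, -0.82 ± 0.13 (SE) on the log2 scale with an adjusted p of 0.000605 by limma. Among other genes of this list, FER (0.42 on the log2 scale), ROP2 (0.42) and ROP4 (0.24) were called higher, and ROP6 (-0.37) was called lower. SCN1, which confines RBOHC to the hair tip, and UPB1 were not called.

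**Figure D4:**
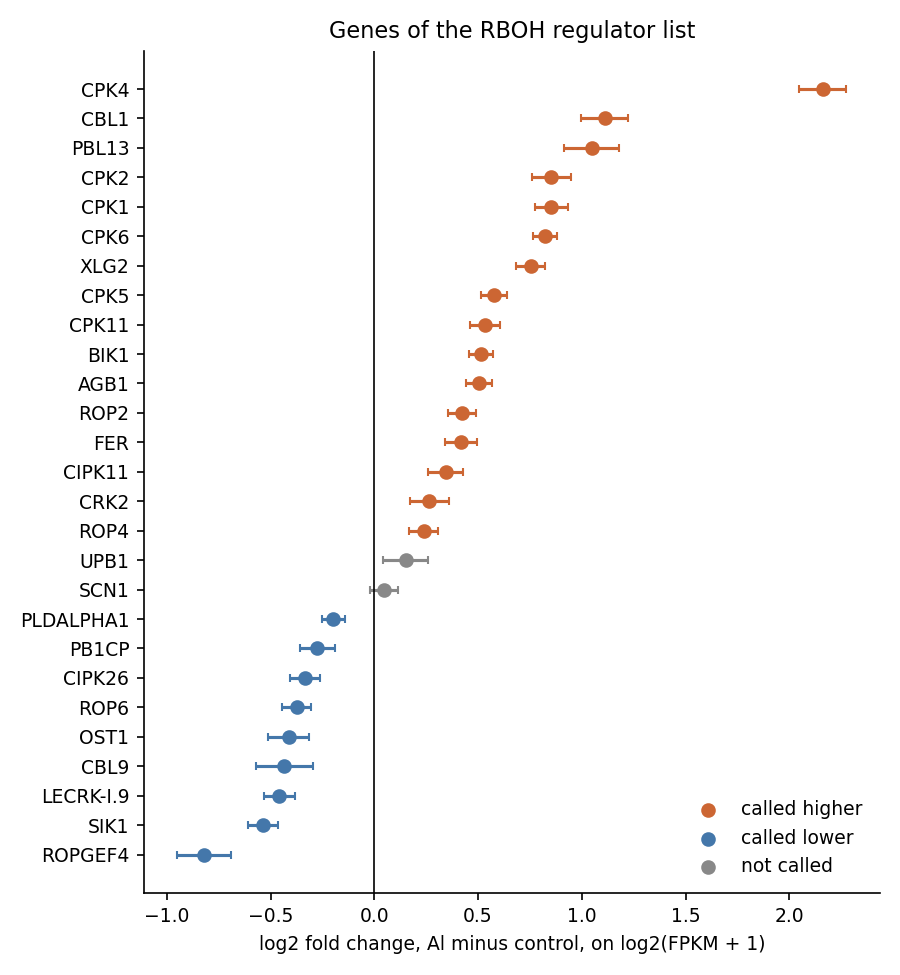
Log2 fold change (Al minus control, on the log2(FPKM + 1) scale) of the 27 genes of the RBOH regulator list, with error bars of 1 SE. Orange genes were called higher (16), blue genes lower (9) and grey genes neither (limma, adjusted p below 0.05). CPK4 lies farthest to the right at 2.16 and ROPGEF4 farthest to the left at -0.82.

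Genes known to respond to H2O2 were higher after Al. Of 9 such genes 8 were tested and all 8 were called higher, beside 21.3% of all genes tested. Their log2 fold changes ran from 0.341 (UPOX) to 4.335, with a median of 3.24. In the fit with replicate number as a block 7 of these genes were called higher, beside 3648 of the 18463 genes tested. Their summed FPKM was 50.12 to 56.84 in control and 606.6 to 675.8 after Al. ANAC042, a NAC factor induced by H2O2, had an FPKM of 0.41, 1.04 and 0.96 in control and of 37.85, 32.09 and 35.03 after Al. ZAT10 and ZAT12 are zinc finger proteins of the oxidative stress response. ZAT10 went from 23.5 ± 2.12 to 354.1 ± 32.0 (SD, n = 3), ZAT12 from 11.2 ± 1.29 to 154.9 ± 2.44, and BAP1, a membrane-bound inhibitor of cell death, from 3.12 ± 0.53 to 43.4 ± 2.45. These genes respond to other stresses as well, and no ROS was measured in these files. This list, like the other lists here, was chosen with earlier results of these data known, so its count of calls is a description only.

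Enzymes and sensors of apoplastic ROS went in both directions. Of 10 genes, 4 were called higher and 2 lower, beside 21.3% and 38.5% of all genes tested, with a median log2 fold change of 0.11. PRX34, a cell wall peroxidase that also makes H2O2, had an FPKM of 2.03, 2.27 and 1.6 in control and of 11.38, 12.82 and 13.78 after Al, a change of 2.21 ± 0.12 (SE) on the log2 scale with an adjusted p of 5.07e-07 by limma. That was a larger change than that of RBOHD, from a lower level. Its close relative PRX33 went from 0.103 ± 0.0808 to 1.497 ± 0.208 (SD, n = 3), and the pair are close in sequence, so that the counting may split their reads. GHR1, a receptor-like kinase of guard cell H2O2 signalling, went from 3.18 ± 0.322 to 1.32 ± 0.159. PIP2;1, an aquaporin that passes water and H2O2, went from 1047 ± 50.2 to 681.8 ± 80.2 and was the most abundant gene of the list.

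The FRO ferric reductases are related to the RBOH proteins through their electron-carrying core, but pass electrons to metal ions, and members of the family act at different membranes. Of 8 FRO genes 4 were tested, 3 were called lower and none higher, beside 38.5% lower and 21.3% higher over all genes tested. With median-ratio scaling, 1 of the 4 was called higher, beside 5381 of the 18463 genes tested. FRO5 had an FPKM of 27.3, 28.31 and 16.83 in control and of 5.29, 5.53 and 4.16 after Al. FRO2, the main root ferric reductase for iron uptake, had 18.99, 31.63 and 15.37 in control and 6.39, 9.34 and 6.5 after Al, and FRO4 had 47.63, 53.96 and 33.57 in control and 20.68, 27.25 and 32.59 after Al. FRO4 did not overlap between the groups, but its nearest samples were 33.57 and 32.59. FRO7 was listed at 0 in all 6 samples, and FRO1, FRO6 and FRO8 were too low to be tested.

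**Figure D5:**
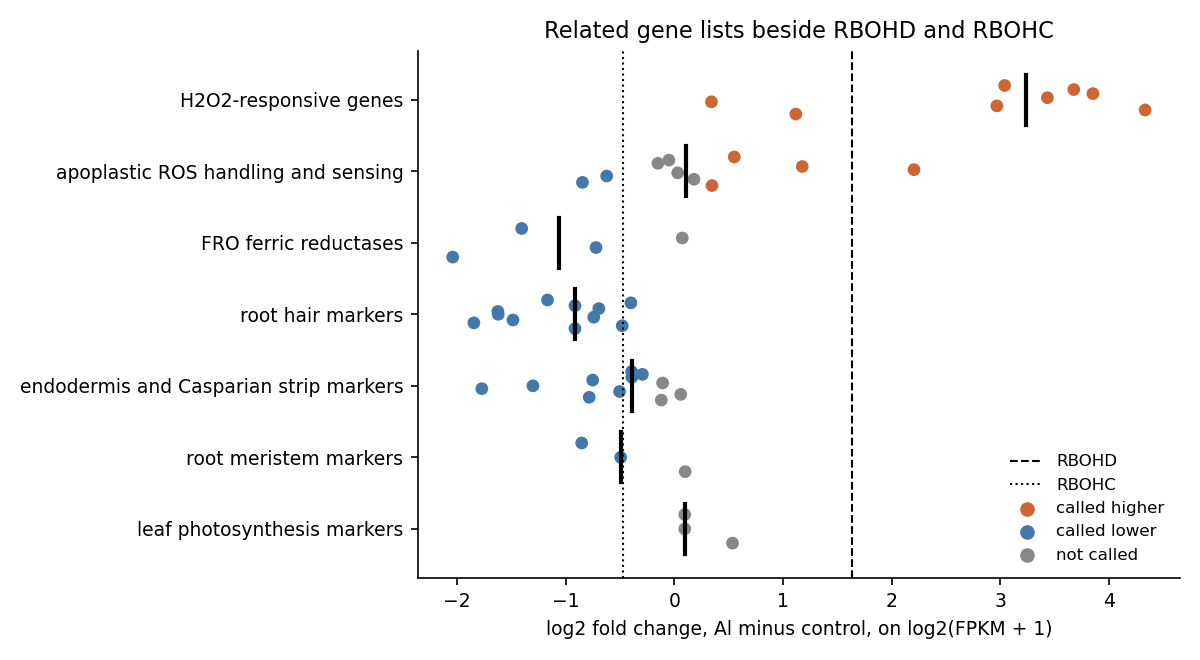
Log2 fold change (Al minus control, on the log2(FPKM + 1) scale) of each tested gene in 7 lists, with 1 point per gene, coloured by its limma call, and a black bar at the median of the list. The dashed line marks RBOHD at 1.63 and the dotted line RBOHC at -0.47; the H2O2-responsive genes centre at 3.24 and the root hair markers at -0.92.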

How the data were processed

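Root-tip mRNA of 3 Al-treated and 3 control WT samples was measured by RNA-seq, and groups and replicate numbers were taken from the labels. The authors deposited FPKM values for 24379 genes, with 2 decimals and replicates kept apart. Their aligner, counting tool and annotation are not given in the sources used here. The deposited table also holds the authors' log2 ratio, p-value and q-value, which were not used, and 6 unused per-sample columns that repeat the FPKM values.

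Coordinates of genes equalled those of TAIR10.1 for 23857 of 24174 shared genes and for all RBOH genes with a row. Genes reaching an FPKM of 1 in 3 or more samples (18463) were fitted with limma 3.58.1 (R 4.3.3) with a mean-variance trend on log2(FPKM + 1), which understates the change of low genes, without a replicate block. Calls were made at a Benjamini-Hochberg adjusted p under 0.05. An exact permutation test (two-sided) served for single values, where 3 against 3 samples cannot go below p = 0.1. Fragments were estimated from the steps of FPKM values between 0.1 and 0.6, of which 87.1% to 89.8% came within 0.15 of a whole number of fragments (30% by chance). These depths are estimates and cover counting error only. Protein identity and promoters were computed from the TAIR10.1 genome and RefSeq annotation with Biopython 1.88 and Python 3.11.15. The promoter of 1 member is not reported here. The limma and depth steps were tested on simulated data.

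The members, the 9 lists (90 genes) and the motifs were chosen with earlier results of these data known. All RBOH genes were named, with at most 4 called genes of largest absolute log2 fold change from each list, and pollen and leaf markers by level. Any other list gene was named after its values were seen. Alternatives were 3 other scalings, 2 other pseudocounts, 2 other filters, no trend, a replicate block, a fold limit and leaving out each sample.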

Additional observations from a re-analysis of the deposited data

How the results depend on the processing

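Of the 232 values computed under alternative settings, 214 were labelled as unchanged. For log2 fold changes this meant the same side of the threshold, and for the sum and shares a value within the replicate spread. Counts of genes were labelled by a limit on their ratio to the main count. No log2 fold change, sum or share changed direction. Some of this was fixed in advance, since TPM and median-ratio scaling leave shares unaltered and the fold limit leaves log2 fold changes unaltered. When calls also required an absolute log2 fold change of 1, they numbered 1190 higher and 531 lower, of which 1 and 0 were RBOH genes, and RBOHA (0.361), RBOHB (-0.495), RBOHC (-0.474) and RBOHE (0.362) lost their calls by construction. With median-ratio scaling 5 RBOH genes were called higher, RBOHG (0.404) and RBOHI (0.251) among them, and the summed FPKM rose 1.34-fold. At that scaling 5381 of the 18463 genes tested were called higher and 4984 lower, and on the TPM scale 3431 and 8169. RBOHF was called lower on the TPM scale (-0.231) and RBOHI higher with quantile normalization (0.201). The cause was not tested. Leaving out single samples gave 2 to 4 RBOH genes higher and 2 to 3 lower, 3421 to 4024 genes higher and 6235 to 6495 lower, and log2 fold changes of 0.300 to 0.429 for RBOHE, -0.227 to -0.122 for RBOHF and 0.159 to 0.352 for RBOHG. Same-numbered samples did not deviate together (correlations of -0.251, -0.037 and -0.224), so no shared effect of the replicate number was seen. Whether these samples were paired by culture is not stated, and the correlations cannot decide it. The fit with a replicate block called 3648 genes higher and 6319 lower and changed no RBOH call (adjusted p by limma 1.13e-05 for RBOHD, 0.0105 for RBOHA, 0.0259 for RBOHE, 0.00341 for RBOHC and 0.018 for RBOHB). Depth limits RBOHH alone among the 9 genes.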
